A study of Mus musculus with 6 samples.

Results

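The 48 genes described here encode the proteins that copy DNA and the enzymes that supply its building blocks. They were taken by name from a list that holds the origin licensing factors, the MCM helicase and its activators, the replicative polymerases, the sliding clamp and its loaders, single-strand binding and Okazaki fragment factors, fork protection and chromatin assembly factors, 5 enzymes of nucleotide supply and the transcription factor E2f1. The rule used gene names and no measured value. All 48 were among the 55421 genes of the count table and had enough counts to be tested.

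Leukemia cells from mouse bone marrow were profiled by RNA-seq, with 3 libraries from AE9a-Ddit4+/+ (wild-type) and 3 from AE9a-Ddit4-/- (knockout) mice, all on the C57BL/6 background. Both groups carried AE9a, a shortened AML1-ETO fusion protein, which a retrovirus had brought into c-Kit+ blood stem and progenitor cells of donors 6 to 8 weeks old with an intact (Ddit4+/+) or deleted (Ddit4-/-) Ddit4 gene. Infected cells were marked by GFP and grew out in irradiated C57BL/6 recipients, whose own marrow can remain in part. The DDIT4 protein restrains mTOR signaling under stress. The study's methods put AE9a leukemia cells used for RNA sequencing in the third round of transplantation, without naming these genotypes. The cells sequenced here came from the marrow of transplanted mice, and the group size of 3 stated for them points to 1 mouse per library. Whether those mice carried separately induced leukemias is not given in the sources used here. In the primary transplantation that the study describes, fewer recipients of AE9a-Ddit4-/- cells developed leukemia than the 3 knockout libraries. If the knockout libraries derive from that experiment alone, at least some of them share an induced leukemia. Here n counts libraries, and p values measure the spread between them, not between separately induced leukemias.

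Before S phase, the origin recognition complex, CDC6 and CDT1 load the MCM2 to MCM7 ring onto DNA, and MCM10, CDC45 and GINS turn it into an active helicase. Primase and polymerases then copy both strands, held on DNA by the PCNA clamp that the RFC complex loads. Ribonucleotide reductase, thymidylate synthase, thymidine kinase and dUTPase keep deoxynucleotides in supply. Many of these genes are induced by E2F factors as cells enter S phase, and in bone marrow their mRNAs are most abundant in dividing precursors.

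Of the 48 genes, 22 fell and 0 rose in knockout leukemia cells. In edgeR's quasi-likelihood test, 22 of 48 (45.8%) fell past an adjusted p of 0.05, where 10.7% of the 18375 genes tested and 17.0% of the 8214 genes with an average log2 CPM (CPM, counts per 1e+06 counts of the library) above 4 did so. Of the 48, 0 rose past the threshold and 0 were higher at an unadjusted p below 0.05. With edgeR, 19.4% of all genes tested rose and 30.1% (5535 genes) changed in either direction. DESeq2 made more calls, with 27 of the 48 lower, 0 higher, and 7097 of the 18375 genes tested changed in either direction. All fold changes are given as knockout over wild type. The median log2 fold change of the 48 was -1.03, beside 0.04 over all genes tested and -0.17 over the abundant genes, and 46 of the 48 values were below 0. The 22 genes that fell had values from -0.67 to -2.69, and 19 of them fell at least 2-fold.

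The libraries of the 2 genotypes did not overlap, with the knockout lower, in 32 of the 48 genes (66.7%), against 22.2% of all genes tested and 30.8% of abundant genes. In 15 genes the groups overlapped, and Pola2 alone had all knockout libraries above all wild-type libraries, a pattern found in 27.9% of genes tested. The spread within the groups had a common order. Knockout library 1 was the lowest of the 6 libraries in 45 genes, wild-type library 2 the lowest of the wild type in 45, and wild-type library 1 the highest of the wild type in 41. The summed level of the 48 genes was 8526, 4789 and 7175 CPM in wild-type libraries 1, 2 and 3 and 2177, 4094 and 4110 CPM in knockout libraries 1, 2 and 3. All 3 knockout sums were thus below the lowest wild-type sum, but knockout libraries 2 and 3 lay closer to wild-type library 2 than to knockout library 1. Fewer dividing cells and less of these mRNAs per cell cannot be told apart in such bulk samples. The study measured resting (G0) cells by flow cytometry among GFP+ leukemia cells from the endosteal marrow. It reported a significantly lower share of them in AE9a-Ddit4-/- than in AE9a-Ddit4+/+ mice. The relation of that share to the mRNA levels given here was not tested.

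**Figure D1:**
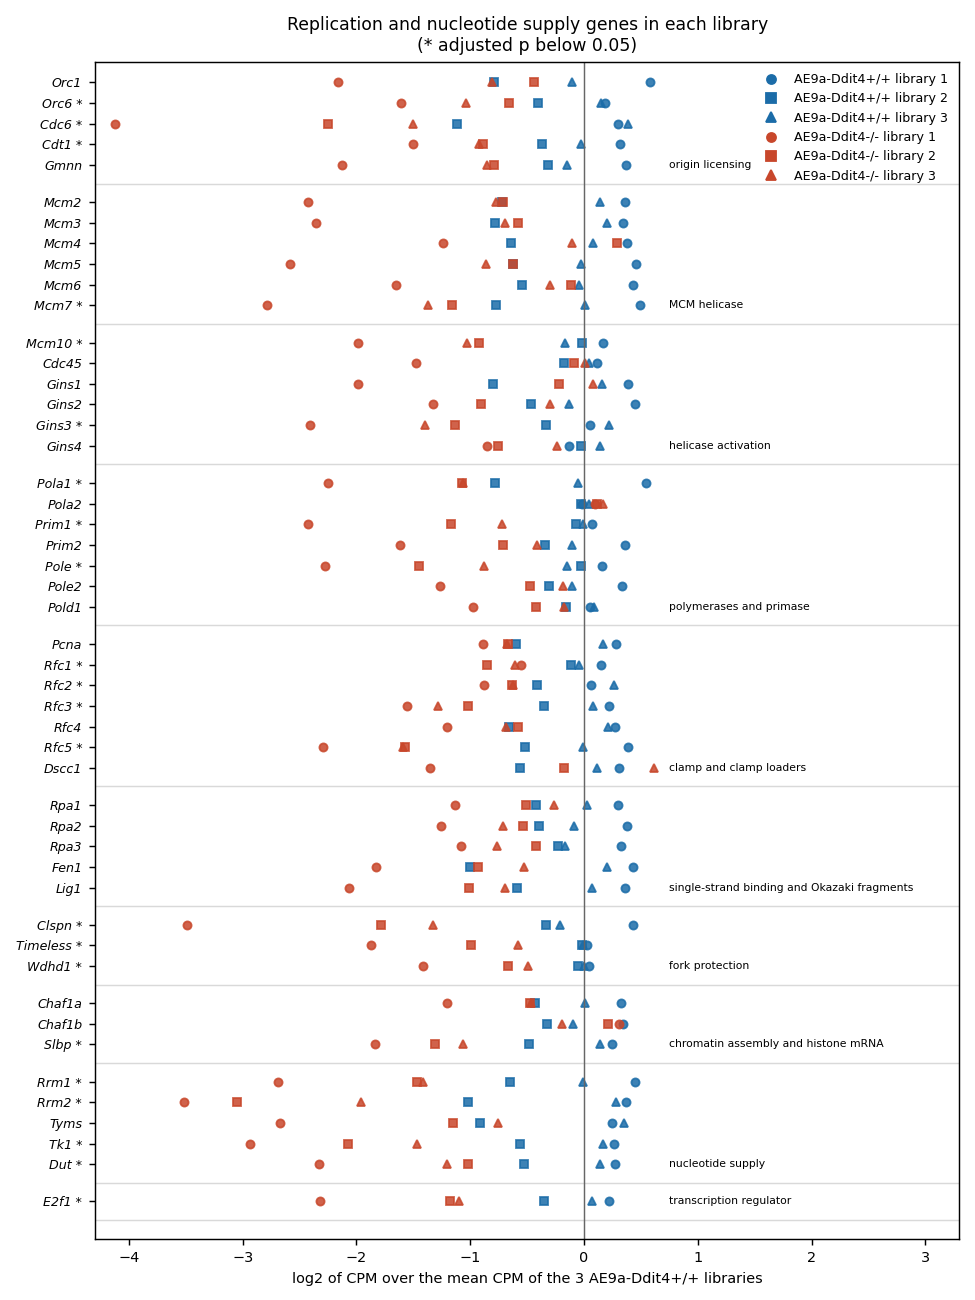
Level of each of the 48 genes in each library, as the log2 of its CPM over the mean CPM of the 3 wild-type (AE9a-Ddit4+/+) libraries (horizontal axis), grouped by role. Blue symbols are wild-type and red symbols knockout (AE9a-Ddit4-/-) libraries, and an asterisk marks an edgeR adjusted p below 0.05. Red circles (knockout library 1) are the lowest symbol in 45 of the 48 genes.

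The count depended on single libraries. It dropped to 5 genes without wild-type library 1, to 8 without wild-type library 3 and to 13 without knockout library 2, whereas it was 25 without wild-type library 2 and 15 without knockout library 1 or 3. Calls over all genes, in either direction, moved from 5535 with all libraries to 4143 without wild-type library 1 and 3849 without wild-type library 3. They were 6021 without wild-type library 2 and 3840, 4271 and 4235 without knockout libraries 1, 2 and 3. Those of the 48 genes that lost the threshold in such fits had adjusted p values of 0.0505 to 0.147 and stayed below 0. Rfc3, Rfc5, Slbp, Rrm2 and Tk1 passed in each of the 6 fits that left out a library, and Mcm10 and Rrm1 in 5 of them, losing the threshold without wild-type library 1 (adjusted p 0.0596 and 0.0524). The median log2 fold change of the 48 genes stayed between -0.73 (without knockout library 1) and -1.24.

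Other properties of the libraries also differed by genotype. Totals ran from 62141558 to 72717681 counts, and mitochondrially encoded genes took 5.03% to 7.90% of the wild-type and 11.3% to 16.4% of the knockout counts. Erythroid markers summed to 6834 to 14904 CPM in wild-type and 264 to 768 CPM in knockout libraries (8 of 10 lower past the threshold, none at 0), and neutrophil markers to 6815 to 11065 and 1527 to 4717 CPM (4 of 8 lower, none at 0). T and NK cell (6 of 7), B cell (6 of 6) and stroma and endothelium (4 of 6) markers were higher in the knockout, with sums of 10.1 to 47.6 against 75.1 to 98.2, 0.959 to 4.70 against 63.9 to 127, and 6.25 to 9.54 against 157 to 191 CPM. Single genes made up much of the sums of these lists that were higher. In the B cell list, Cd79b was at 0.603 to 3.06 CPM in wild-type and 32.2 to 67.7 CPM in knockout libraries. Nkg7, the T and NK gene that did not pass (adjusted p 0.177), was at 9.31 to 47.1 and 38.0 to 61.0 CPM, and Pecam1 at 1.98 to 4.999 and 123 to 144 CPM, whereas the collagens Col1a1 and Col1a2 did not pass (adjusted p 0.199 and 0.0748). Klrb1c and Ms4a1 were at 0 in all wild-type libraries. Monocyte and macrophage markers (112 to 191 and 48.6 to 229 CPM) had 0 of 5 past the threshold in either direction with edgeR (0 at an unadjusted p below 0.05). The part of these cells in the lower replication genes was not tested. Kit, by which the study's methods describe AE9a leukemia cells, was at 28.0, 31.6 and 14.6 CPM in wild-type and 508, 304 and 421 CPM in knockout libraries (log2 fold change 4.06, edgeR adjusted p 0.000550), and the progenitor marker Cd34 at 2.26 to 9.82 and 493 to 558 CPM. Runx1t1, the gene of the ETO part of the fusion, was at 6.47, 11.1 and 18.05 CPM in wild type and 206, 141 and 69.8 CPM in the knockout (log2 fold change 3.55, SE 0.52, edgeR adjusted p 0.00295), so that every knockout library lay above every wild-type library. Counts per gene do not tell the fusion transcript from that of the mouse gene, and a difference in the share of AE9a cells cannot be told apart from one in transcript per cell. Xist was at 565 to 1032 CPM in wild type and 20.3 to 129 CPM in the knockout, and the Y-linked Ddx3y at 0.0589 to 0.0773 and 88.2 to 125 CPM. Genotype and sex of the cells therefore cannot be told apart. Ddit4 itself had 227, 161 and 341 CPM in the wild-type and 84.9, 77.6 and 85.8 CPM in the knockout libraries (edgeR adjusted p 0.00635, log2 fold change -1.56 with an SE of 0.28).

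Promoter sequence was examined because E2F factors bind many replication genes near their start. RefSeq windows on GRCm38.p6, from 250 bases before to 50 after the start, were at hand for 39 of the 48 genes (43 windows). The last 30 bases of the window were found in a GENCODE transcript of the gene for 31 of the 43. Some windows may therefore not hold the start that these cells use. The core of the E2F site, searched as TTNNCGC with C or G at each N, stood on either strand in 25 of the 39 (64.1%), against 10.9% of 27025 genes with such windows. The CCAAT box was present in 23 (59.0%, against 41.1%), and the TTTGAA element, part of the sites that repress cell cycle genes in resting cells, in 4 (10.3%, against 20.2%). Neighbouring E2F cores can overlap, since TTGGCGC followed by GAA holds TTCGCGC on the other strand. The core was present in 12 of the 20 genes that fell and had a window, and in 13 of the 19 that did not pass. The 250 bases before the start are printed for both subunits of ribonucleotide reductase (Rrm2 and Rrm1) and, as promoters with several cores, for Pola1, which fell, and Mcm6, which did not pass. They run 5′ to 3′ on the strand of the gene, with E2F core letters on either strand in capitals.
Rrm2 (chr12:24708004-24708253, plus strand): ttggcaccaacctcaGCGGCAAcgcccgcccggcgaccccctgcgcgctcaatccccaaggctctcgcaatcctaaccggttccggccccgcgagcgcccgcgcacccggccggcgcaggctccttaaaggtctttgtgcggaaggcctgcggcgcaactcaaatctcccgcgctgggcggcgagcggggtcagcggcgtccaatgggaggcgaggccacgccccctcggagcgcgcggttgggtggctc
Rrm1 (chr7:102441445-102441694, plus strand): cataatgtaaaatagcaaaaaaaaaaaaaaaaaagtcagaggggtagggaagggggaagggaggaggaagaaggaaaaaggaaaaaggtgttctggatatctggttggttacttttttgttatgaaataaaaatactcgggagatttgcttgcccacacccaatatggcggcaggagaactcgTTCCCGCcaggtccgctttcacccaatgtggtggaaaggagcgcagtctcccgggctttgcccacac
Pola1 (chrX:93632156-93632405, minus strand): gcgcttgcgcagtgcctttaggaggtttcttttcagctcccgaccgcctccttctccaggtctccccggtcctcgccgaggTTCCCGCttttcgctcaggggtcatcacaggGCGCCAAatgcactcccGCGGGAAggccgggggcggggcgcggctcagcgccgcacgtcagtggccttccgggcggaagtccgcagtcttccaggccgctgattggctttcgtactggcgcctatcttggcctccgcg
Mcm6 (chr1:128359706-128359955, minus strand): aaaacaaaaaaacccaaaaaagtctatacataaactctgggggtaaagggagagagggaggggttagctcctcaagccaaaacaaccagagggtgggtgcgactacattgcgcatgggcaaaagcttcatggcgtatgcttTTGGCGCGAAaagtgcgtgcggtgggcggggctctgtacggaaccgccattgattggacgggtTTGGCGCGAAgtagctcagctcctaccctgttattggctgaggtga
Rrm2 had 1 core, beginning 235 bases before the start, and Rrm1 had 1 at 67 bases. Pola1 held 3 (at 169, 138 and 121 bases) and Mcm6 held 4 as 2 overlapping pairs (at 109 and 106, and at 46 and 43 bases). Mcm6 had the most cores of these 4 promoters, which were picked for print, and the smallest log2 fold change of the 4 genes. A relation of cores to fold changes was not tested. Starts are those of RefSeq and can differ from the GENCODE ends given with each gene.

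Nucleotide supply showed the largest falls of all roles, with 4 of 5 genes lower and a median log2 fold change of -1.75. Rrm2 (ENSMUSG00000020649, chr12:24708241-24714146, plus strand) encodes the small subunit of ribonucleotide reductase, whose amount limits the enzyme in S phase. Values are listed in the order of libraries 1, 2 and 3, wild type first. Rrm2 was at 221, 84.2 and 208 CPM in wild-type libraries 1, 2 and 3 and at 14.99, 20.7 and 43.9 CPM in knockout libraries 1, 2 and 3. Every knockout library lay below the lowest wild-type library, and the change was the largest of the 48 genes (log2 fold change -2.69, SE 0.52, edgeR adjusted p 0.00800, 6.44-fold lower). Rrm1 (ENSMUSG00000030978, chr7:102441695-102469771, plus strand), the large subunit, had 590.5, 275 and 430.3 CPM in wild type and 66.8, 156 and 162 CPM in the knockout (log2 fold change -1.75, SE 0.41, edgeR adjusted p 0.0166). Here too the groups were apart, with wild-type library 2 nearest to the knockout. Per kb of exon, Rrm1 stood at 0.672 ± 0.151 times Rrm2 in wild-type and 1.32 ± 0.515 times in knockout libraries (mean ± SD, n = 3 each), and these ratios did not overlap. Exon length pools all annotated exons of a gene (11012 bp for Rrm1, 2771 bp for Rrm2). The level of such a ratio therefore depends on the annotation, while its comparison between genotypes uses the same lengths.

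Tk1 (ENSMUSG00000025574, chr11:117815526-117826092, minus strand), the cytosolic thymidine kinase of the salvage pathway, went from 167, 94.5 and 156 to 18.2, 33.0 and 50.3 CPM (log2 fold change -2.04, SE 0.40, edgeR adjusted p 0.00864). Dut, which breaks down dUTP so that uracil is kept out of DNA, went from 165, 95.1 and 151 to 27.3, 67.7 and 59.5 CPM (log2 fold change -1.41, SE 0.37, edgeR adjusted p 0.0264). For both genes the highest knockout library was below the lowest wild-type library. Tyms, thymidylate synthase, had 64.8, 28.9 and 69.7 CPM in wild type and 8.54, 24.5 and 32.2 CPM in the knockout, which missed the threshold (log2 fold change -1.33, SE 0.52, adjusted p 0.0946). Its wild-type library 2 lay below knockout library 3, and without that wild-type library Tyms passed (adjusted p 0.0473). Of the calls in this role, that of Rrm1 was lost without wild-type library 1 (adjusted p 0.0524) and that of Dut in 3 of the 6 fits that left out a library (0.0604 to 0.0799).

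**Figure D2:**
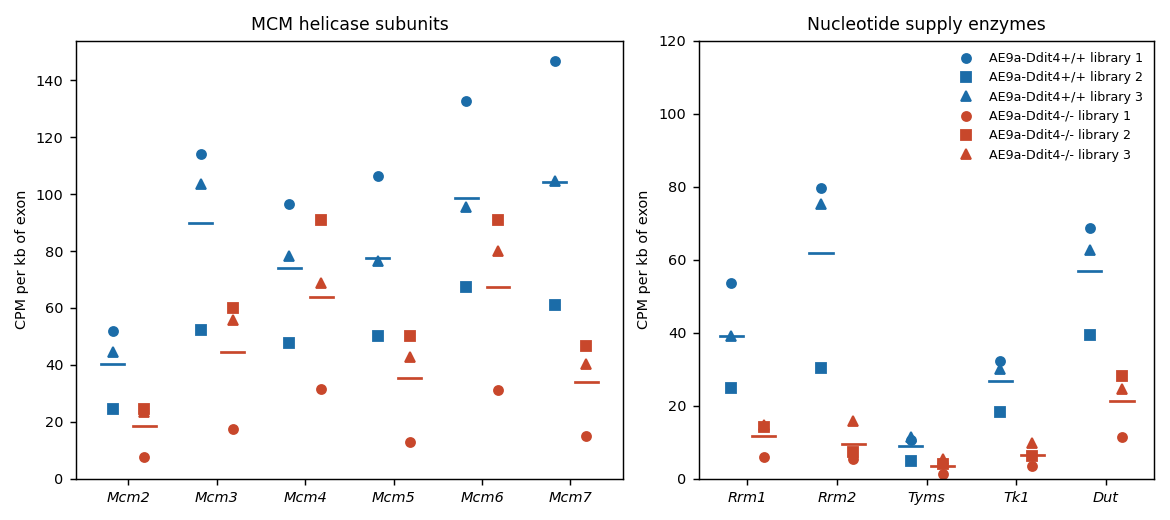
Levels of the 6 MCM helicase genes (left) and the 5 nucleotide supply genes (right) in CPM per kb of exon, on linear axes that start at 0. Symbols are libraries and short lines are group means, with the wild type in blue and the knockout in red. Mcm4 and Mcm6 have overlapping groups, while Mcm7, Rrm1, Rrm2, Tk1 and Dut have all red symbols below all blue ones.

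Of the 5 origin licensing genes, 3 were lower. Cdc6 (ENSMUSG00000017499, chr11:98907801-98923940, plus strand), the loader that brings the MCM ring to origins, had the second largest fall of the 48 genes, from 147, 54.9 and 156 to 6.82, 25.0 and 42.0 CPM (log2 fold change -2.28, SE 0.67, edgeR adjusted p 0.0375). The libraries of each group spread widely, and wild-type library 2 was close to knockout library 3. Cdt1 (ENSMUSG00000006585, chr8:122568015-122573554, plus strand), the partner of CDC6 in loading, went from 138, 86.4 and 109.6 to 39.2, 60.2 and 58.9 CPM (log2 fold change -1.08, SE 0.26, edgeR adjusted p 0.0180). Orc6, the smallest subunit of the origin recognition complex, went from 110.3, 73.4 and 107 to 31.9, 61.5 and 47.2 CPM (log2 fold change -1.05, SE 0.29, edgeR adjusted p 0.0305). Groups were apart for all 3 genes, but the calls were lost in 4 (Cdc6, adjusted p 0.0534 to 0.103), 3 (Cdt1, 0.0505 to 0.0585) and 4 (Orc6, 0.0730 to 0.0929) of the 6 fits that left out a library. Gmnn (geminin), the inhibitor of CDT1, had 76.5, 47.4 and 53.3 CPM in wild type and 13.5, 34.2 and 32.8 CPM in the knockout and missed the threshold although its groups were apart (log2 fold change -1.14, SE 0.38, edgeR adjusted p 0.0583). Per kb of exon, Cdt1 was 0.885 ± 0.0642 times Gmnn in wild-type and 1.004 ± 0.301 times in knockout libraries, with overlapping groups. Orc1, the largest subunit of the origin recognition complex, did not pass and had overlapping groups (log2 fold change -0.97, SE 0.51, edgeR adjusted p 0.190).

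The 6 subunits of the MCM ring, which act in equal number in the helicase, had log2 fold changes from -0.22 to -1.62, and 1 of the 6, Mcm7, fell past the threshold. Mcm7 (ENSMUSG00000029730, chr5:138164583-138172422, minus strand) had 650.3, 270.0 and 463 CPM in wild-type and 66.8, 206 and 178 CPM in the knockout group (log2 fold change -1.62, SE 0.47, edgeR adjusted p 0.0370). Its groups were apart, though the call was lost without wild-type library 1 (adjusted p 0.112), wild-type library 3 (0.0861), knockout library 1 (0.0660) or knockout library 3 (0.0786). Mcm6 (ENSMUSG00000026355, chr1:128331590-128359664, minus strand), another subunit of the ring, had 619, 315 and 446 CPM in wild type and 146, 425 and 374 CPM in the knockout (log2 fold change -0.55, SE 0.42, edgeR adjusted p 0.361). Of its knockout libraries, 2 lay inside the wild-type range and knockout library 1 below it. Mcm4 (347, 171 and 281 against 113, 326 and 247 CPM) showed the same arrangement with the smallest change of the ring (log2 fold change -0.22, SE 0.41, edgeR adjusted p 0.721). Its sign changed without wild-type library 1 (0.016) or knockout library 1 (0.11).

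Mcm5 (424, 201 and 305 against 51.6, 201 and 171 CPM, log2 fold change -1.14, SE 0.50, edgeR adjusted p 0.126) and Mcm2 (361, 170.1 and 309.5 against 52.1, 171 and 163 CPM, log2 fold change -1.12, SE 0.47, edgeR adjusted p 0.113) had values nearer to that of Mcm7 but did not pass. In each, wild-type library 2 was at the level of knockout library 2. Mcm3 stood likewise at -1.02 (adjusted p 0.153). Per kb of exon, the ratio of Mcm6 to Mcm7 was 0.974 ± 0.115 in wild-type and 2.01 ± 0.0624 in knockout libraries, and that of Mcm4 to Mcm7 was 0.728 ± 0.0635 and 1.92 ± 0.187 (mean ± SD, n = 3 each). Both ratios were higher in each knockout library than in any wild-type library. Mcm2 was the lowest subunit per kb in all 6 libraries, and the highest exceeded it 2.35 to 2.83-fold in wild type and 3.41 to 4.19-fold in the knockout. This rank depends on the pooled exon length, which was 6956 bp for Mcm2 and 3589 bp for Mcm4. Before division by length, mean wild-type levels were 280 CPM for Mcm2 and 266 CPM for Mcm4.

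Among 6 genes of helicase activation, 2 were lower. Mcm10 (ENSMUSG00000026669, chr2:4989714-5012791, minus strand), a scaffold needed to start unwinding, went from 92.0, 81.0 and 73.2 to 20.7, 43.4 and 40.3 CPM (log2 fold change -1.24, SE 0.30, edgeR adjusted p 0.0189). Gins3 (ENSMUSG00000031669, chr8:95633453-95645060, plus strand), a subunit of the GINS complex, went from 17.8, 13.6 and 19.9 to 3.23, 7.78 and 6.50 CPM (log2 fold change -1.55, SE 0.39, edgeR adjusted p 0.0222). Both had groups apart, with knockout library 1 lowest. Without wild-type library 1 neither passed (adjusted p 0.0596 and 0.0601), and Gins3 was also lost without wild-type or knockout library 3 (0.0722 and 0.0589). The other GINS subunits did not pass, at -0.78 for Gins2 (adjusted p 0.123), -0.59 for Gins4 (0.0998) and -0.47 for Gins1 (0.549). Cdc45, the third part of the active helicase, had 55.1, 45.1 and 52.3 CPM in wild type and 18.3, 47.8 and 51.2 CPM in the knockout (log2 fold change -0.38, SE 0.37, edgeR adjusted p 0.482). Outside knockout library 1, its libraries lay within one range. Gins2 shares 67.3% of its exon bases with Gse1 on the opposite strand, and whether counting used strand is not given in the sources used here.

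**Figure D3:**
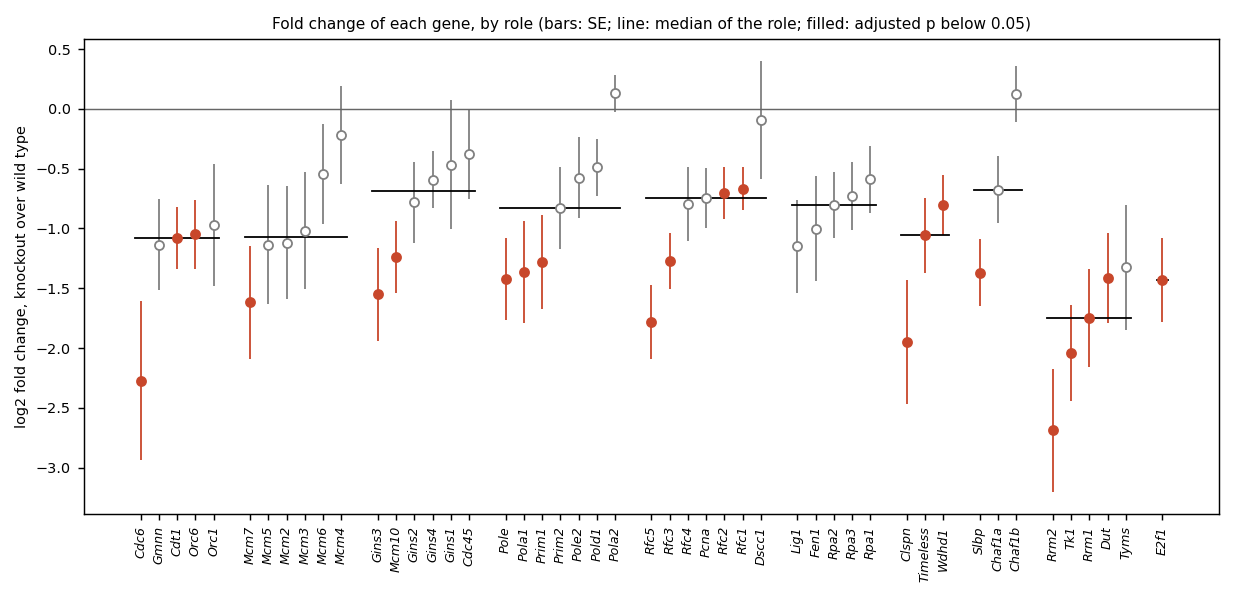
Log2 fold change (knockout over wild type) of the 48 genes, ordered within each role, with SE as error bars and a black line at the median of the role. Filled red points passed an edgeR adjusted p of 0.05, open grey points did not. Values run from -2.69 (Rrm2) to 0.13 (Pola2), and the nucleotide supply genes have the lowest median (-1.75) of the roles with more than 1 gene.

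Among 7 genes of the polymerases and primase, 3 catalytic subunits were lower. Pole (ENSMUSG00000007080, chr5:110286306-110337474, plus strand), the catalytic subunit of the leading-strand polymerase, went from 149, 130.3 and 119.8 to 27.4, 48.8 and 72.3 CPM (log2 fold change -1.42, SE 0.34, edgeR adjusted p 0.0183). Pola1 (ENSMUSG00000006678, chrX:93304767-93632155, minus strand), the catalytic subunit of polymerase alpha, went from 98.2, 39.3 and 65.0 to 14.2, 32.1 and 32.2 CPM (log2 fold change -1.37, SE 0.43, edgeR adjusted p 0.0473), and Prim1 (ENSMUSG00000025395, chr10:128015168-128030037, plus strand), the catalytic subunit of primase, from 84.3, 76.6 and 79.7 to 14.9, 35.6 and 48.6 CPM (log2 fold change -1.28, SE 0.39, edgeR adjusted p 0.0448). Groups were apart for each of these 3 genes. Without wild-type library 1 their adjusted p values were 0.0563, 0.147 and 0.107, past the threshold for none, and of the 6 fits that left out a library 2 lost Pole, 5 Pola1 and 4 Prim1. Their partners did not pass. Pola2, the regulatory subunit of polymerase alpha, was at 92.1, 91.5 and 96.3 CPM in wild type and 99.8, 101 and 105 CPM in the knockout (log2 fold change 0.13, SE 0.16, edgeR adjusted p 0.568). These 6 values spanned the narrowest range of the genes in this role, and the knockout was the higher group.

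Pole2 and Prim2, the partners of Pole and Prim1, had values of -0.57 (adjusted p 0.236) and -0.83 (adjusted p 0.107), and Pold1, the catalytic subunit of the lagging-strand polymerase, one of -0.49 (adjusted p 0.156). Per kb of exon, the ratio of Pola2 to Pola1 was 1.68 ± 0.745 in wild-type and 4.76 ± 2.34 in knockout libraries. That of Pole2 to Pole was 0.716 ± 0.112 and 1.34 ± 0.155, and that of Prim2 to Prim1 0.499 ± 0.102 and 0.731 ± 0.133. In each of these 3 ratios of accessory to catalytic subunit the knockout libraries lay above the wild-type libraries. Accessory subunits of Pole outside the 48 genes, Pole3 and Pole4, were lower (log2 fold change -1.14 and -0.88, edgeR adjusted p 0.0104 and 0.0424). Those of Pold1 did not pass, at -1.24 for Pold2 (edgeR adjusted p 0.0748), -0.05 for Pold3 (0.887) and -0.18 for Pold4 (0.582).

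The RFC complex opens the PCNA ring and closes it around DNA, and 4 of its 5 subunits were lower. Rfc5 (ENSMUSG00000029363, chr5:117378103-117389047, minus strand) had 161, 85.2 and 122 CPM in wild-type and 25.0, 41.1 and 40.6 CPM in knockout libraries, with the lowest adjusted p of the 48 genes (log2 fold change -1.78, SE 0.31, edgeR adjusted p 0.00526). Rfc3 (ENSMUSG00000033970, chr5:151642756-151651242, minus strand) went from 115, 77.6 and 105 to 33.7, 48.7 and 40.8 CPM (log2 fold change -1.27, SE 0.23, edgeR adjusted p 0.00645). Groups were apart for both, and both calls held in each fit that left out 1 library. Rfc5 and Rfc2 share 10.7% and 15.1% of their exon bases with Wsb2 and Lat2 on the other strand. Rfc2 (374, 269 and 431 against 195, 231 and 233 CPM, log2 fold change -0.70, SE 0.22, edgeR adjusted p 0.0441) and the large subunit Rfc1 (103, 86.0 and 90.6 against 63.4, 51.6 and 61.3 CPM, log2 fold change -0.67, SE 0.18, edgeR adjusted p 0.0281) had smaller falls. Of the 6 fits that left out a library, 5 lost Rfc2 (adjusted p 0.0884 to 0.147) and 4 lost Rfc1 (0.0522 to 0.0884). Rfc1 is the only gene of the 22 that fell in which knockout library 2 was the lowest of the 6.

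Rfc4 did not pass (log2 fold change -0.80, SE 0.31, edgeR adjusted p 0.0893), and wild-type library 2 lay inside its knockout range. Rfc4 shares 12.7% of its exon bases with Eif4a2 on the other strand. Pcna, the clamp itself, had 591, 320.1 and 547 CPM in wild type and 262, 305 and 303 CPM in the knockout, with groups apart by a small margin (log2 fold change -0.74, SE 0.25, edgeR adjusted p 0.0611). A processed pseudogene, Pcna-ps2, is 99.2% identical over the aligned part of the transcript and was at 3.21 CPM on average, so reads of the pair are uncertain. Dscc1, a subunit of an alternative loader, had overlapping groups, with knockout library 3 the highest of the 6 libraries (19.7, 10.8 and 17.3 against 6.23, 14.1 and 24.4 CPM, log2 fold change -0.10, SE 0.50, edgeR adjusted p 0.902). Its sign changed without wild-type library 1 (0.09), without knockout library 1 (0.28) and with libraries scaled on abundant genes (0.045).

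No gene of single-strand binding or Okazaki fragment processing passed in edgeR (0 of 5), although 3 were lower at an unadjusted p below 0.05. With DESeq2, Lig1 and Rpa2 were lower. Lig1, the ligase that joins Okazaki fragments, came nearest, with 216, 111 and 176 CPM in wild type and 40.1, 83.0 and 103 CPM in the knockout (log2 fold change -1.15, SE 0.39, edgeR adjusted p 0.0595). Its groups were apart. Fen1, the flap nuclease of the same step, had 151, 55.5 and 128 and 31.4, 58.4 and 77.3 CPM, with wild-type library 2 inside the knockout range (log2 fold change -1.001, SE 0.44, edgeR adjusted p 0.127), and 78.8% of its exon bases also belong to Gm10143 on the other strand. Rpa1, the large subunit of the single-strand binding protein RPA, overlapped between groups (264, 160.1 and 219 against 97.6, 151 and 179 CPM, log2 fold change -0.59, SE 0.28, edgeR adjusted p 0.155). Rpa2 (-0.80, adjusted p 0.0618) and Rpa3 (-0.73, adjusted p 0.0902) had groups apart.

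All 3 fork protection genes were lower, with the wild-type libraries close together for Timeless and Wdhd1. Clspn (ENSMUSG00000042489, chr4:126556935-126593903, plus strand), the mediator that passes the signal of a stalled fork to CHK1, went from 116, 68.4 and 74.4 to 7.66, 25.1 and 34.3 CPM (log2 fold change -1.95, SE 0.52, edgeR adjusted p 0.0272). Timeless (ENSMUSG00000039994, chr10:128232065-128252941, plus strand), which steadies the moving fork, went from 107, 103 and 104 to 28.6, 52.5 and 69.9 CPM (log2 fold change -1.06, SE 0.31, edgeR adjusted p 0.0394). Wdhd1 (ENSMUSG00000037572, chr14:47240944-47276857, minus strand), which ties the helicase to polymerase alpha, went from 124, 116 and 119.8 to 45.0, 75.6 and 85.2 CPM (log2 fold change -0.80, SE 0.25, edgeR adjusted p 0.0485). The knockout order was the same in these 3 genes, with library 1 lowest and library 3 highest. Of the 6 fits that left out a library, 3 lost Clspn, 4 Timeless and 5 Wdhd1, and without wild-type library 1 the adjusted p values were 0.0825, 0.0950 and 0.116.

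Slbp (ENSMUSG00000004642, chr5:33634952-33652574, minus strand), which binds the stem-loop of histone mRNAs and lets them be made in S phase, was lower, from 144, 86.8 and 134 to 33.9, 48.9 and 58.1 CPM (log2 fold change -1.37, SE 0.28, edgeR adjusted p 0.0102). Its groups were apart. The subunits of chromatin assembly factor 1, which places new histones behind the fork, did not pass. Chaf1a was at -0.67 (SE 0.28, adjusted p 0.110), and 52.5% of its exon bases overlap Ubxn6 on the other strand. Chaf1b was at 113, 71.0 and 83.5 CPM in wild type and 110.2, 103 and 78.0 CPM in the knockout (log2 fold change 0.12, SE 0.24, edgeR adjusted p 0.727), and it is 1 of only 2 of the 48 genes in which knockout library 1 was the highest knockout library. Its sign changed without wild-type library 2 (-0.017). Per kb of exon, Chaf1b was 1.70 ± 0.120 times Chaf1a in wild-type and 3.20 ± 1.45 times in knockout libraries.

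E2f1 (ENSMUSG00000027490, chr2:154559407-154569892, minus strand), a known activator of S phase genes, was lower, from 67.1, 45.1 and 60.5 to 11.5, 25.5 and 26.9 CPM (log2 fold change -1.43, SE 0.35, edgeR adjusted p 0.0200). The groups were apart, with knockout library 1 lowest, and the call was lost without wild-type library 1 or 3 (adjusted p 0.0631 and 0.0591).

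The calls were set beside the position of the genes on the genome. Of the 8 genes on chromosome 5 (Mcm7, Pole, Rfc1, Rfc2, Rfc3, Rfc5, Slbp and Tyms) 7 were lower, of the 8 on chromosomes 1, 15 and 16 (Mcm3, Mcm6, Prim2, Dscc1, Mcm4, Cdc45, Rfc4 and Chaf1b) 0 were lower (2 at an unadjusted p below 0.05, 0 with DESeq2), and of the other 32, 15 were. These chromosomes were also shifted as a whole in the knockout. The median log2 fold change of the other abundant genes was -0.43 on chromosome 5, where 29.2% of them were lower, and 0.24, 0.39 and 0.26 on chromosomes 1, 15 and 16, where 4.96%, 4.65% and 4.67% were lower. Median log2 fold changes of the replication genes were -1.35 on chromosome 5, -0.46 on chromosomes 1, 15 and 16 and -1.07 elsewhere. With the median shift of each chromosome's other abundant genes, relative to all abundant genes, subtracted, they were -1.08, -0.87 and -0.98, and 47 of the 48 values were below 0. The sets were formed from the chromosomes with the largest shifts in these same data, so their lying closer together after this subtraction is no independent result. The part of the chromosome shifts in single calls and in the ratios between subunits was not tested.

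**Figure D4:**
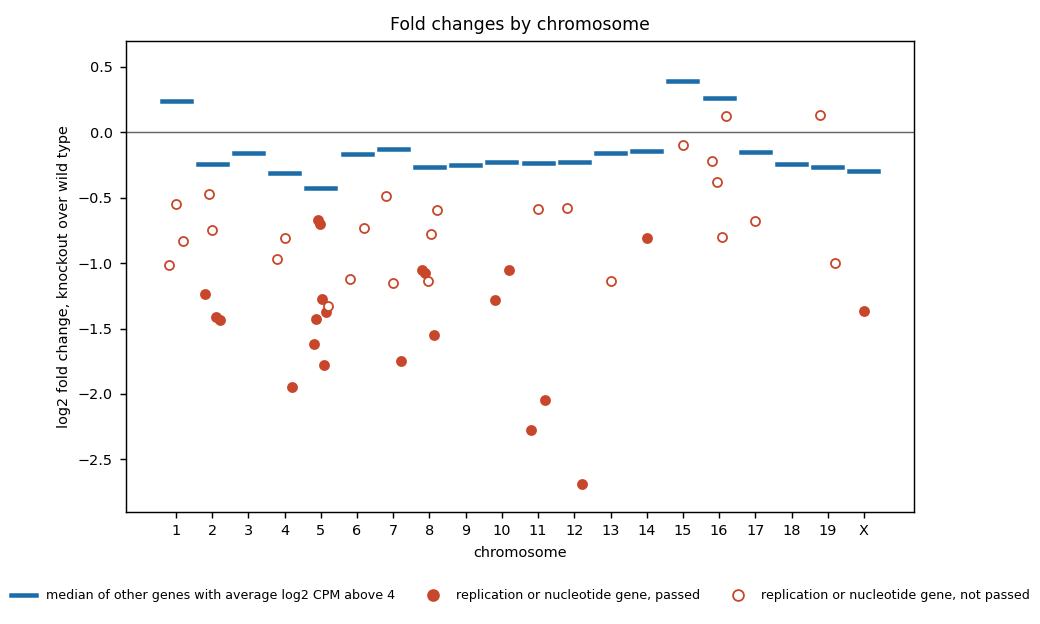
Log2 fold change (knockout over wild type) of the 48 genes by chromosome (red, filled where the edgeR adjusted p was below 0.05), with a blue line at the median of the other genes of that chromosome with an average log2 CPM above 4. The blue lines of chromosomes 1, 15 and 16 lie above 0 (0.24, 0.39 and 0.26) and that of chromosome 5 is the lowest (-0.43).

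Genes beyond the 48 were grouped in 4 further lists, of which 122 genes could be tested, and 42 of these (34.4%) were lower and 0 higher with edgeR (4 higher at an unadjusted p below 0.05, 3 higher with DESeq2), beside 10.7% lower of all genes tested and 17.0% of abundant genes. The number of lower genes dropped to 18 without wild-type library 1, 21 without wild-type library 3, 27 without knockout library 1 and 26 without knockout library 2. In the same fits, calls over all genes in either direction dropped from 5535 to 4143, 3849, 3840 and 4271. Of 37 other replication factors, 10 were lower (27.0%, median -0.70). Orc5, another subunit of the origin recognition complex, went from 59.8 to 20.5 CPM (log2 fold change -1.54, SE 0.20, edgeR adjusted p 0.00187), and Pole3 and Chtf18, subunits of polymerase epsilon and of an alternative clamp loader, fell by 1.14 and 1.44 on the log2 scale. Of 36 other nucleotide synthesis enzymes, 7 were lower (19.4%, median -0.55), a share near the 17.0% of abundant genes. Dck, the deoxycytidine kinase of the salvage pathway, went from 89.1 to 26.6 CPM (log2 fold change -1.74, SE 0.32, edgeR adjusted p 0.00681), and Nme1 and Cmpk1, kinases of nucleoside diphosphates and monophosphates, fell by 1.82 and 0.66 on the log2 scale.

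Of 21 genes of E2F, RB and S phase entry, 8 were lower (38.1%, median -0.69) and 0 higher past the threshold. At an unadjusted p below 0.05, 2 were higher, Cdkn1a (log2 fold change 1.35, edgeR adjusted p 0.0859) and E2f5 (1.07, 0.0611). E2f8 went from 172 to 57.1 CPM (log2 fold change -1.59, SE 0.28, edgeR adjusted p 0.00562), and Fbxo5 and Ccna2, which hold back the anaphase-promoting complex and drive S phase kinase activity, fell by 1.98 and 1.66 on the log2 scale. Of 28 mitosis genes, 17 were lower (60.7%, median -1.09). Mki67, the Ki-67 protein of dividing cells, went from 1045 to 264 CPM (log2 fold change -1.98, SE 0.23, edgeR adjusted p 0.00130), and Cenpa and Cenpe, centromere and kinetochore proteins, fell by 1.10 and 1.28 on the log2 scale. Relative to the wild-type mean, the median log2 level of the mitosis list was 0.01, 0.02 and -0.02 in the wild-type libraries, whereas that of the 48 genes ranged from -0.42 to 0.31 there. Knockout library 1 was again the lowest library in all 4 lists, by median.

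**Figure D5:**
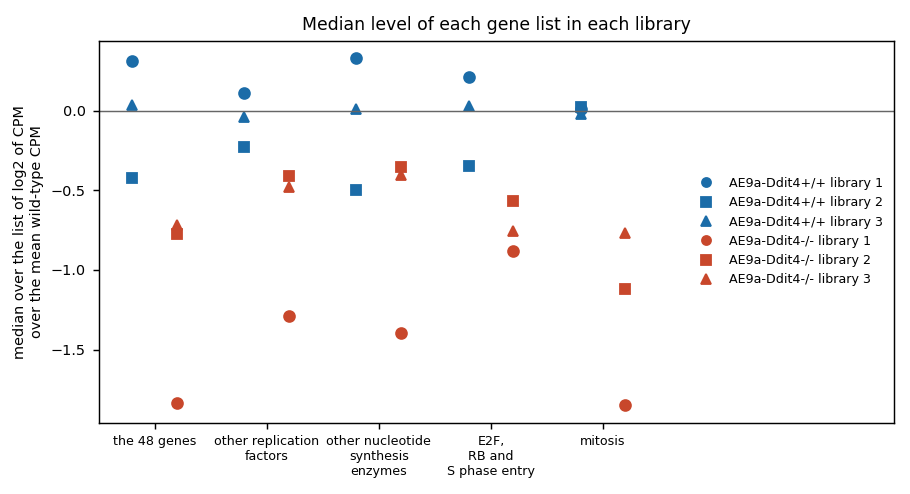
Median over the genes of each list of the log2 of CPM over the mean wild-type CPM, for each library (wild-type blue, knockout red). For the 48 genes the wild-type libraries are at 0.31, -0.42 and 0.04 and the knockout libraries at -1.83, -0.77 and -0.72, while for mitosis genes the wild-type libraries coincide near 0.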

How the data were processed

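The authors deposited 1 table of counts per gene for 6 RNA-seq libraries (Illumina NovaSeq, paired reads of 150 bp per the study's methods). The values were whole numbers and not normalized. The submitters' processing notes name the builds GRCm38 and mm10. Aligner, counting tool, annotation and use of strand are not given in the sources used here, and the methods and the labels name different library kits. Groups and replicate numbers came from the sample titles. Of the identifiers, 55240 (99.7%) were in GENCODE M21 (GRCm38), which gave positions and exon lengths. Exon length was the union of all annotated exons of a gene.

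Differences were tested with edgeR 4.0.16 in R 4.3.3 by its quasi-likelihood model (filterByExpr, TMM, robust estimation, genotype as the only term), with Benjamini-Hochberg adjustment over the 18375 genes that passed the filter. The biological coefficient of variation was 0.433. SE was the size of the log2 fold change over the root of its F statistic. The script was tested on simulated counts. CPM use TMM-scaled totals. Low counts piled up at multiples of 4, so counts divided by 4 were tried. Other alternatives changed scaling, filter, threshold and tool (DESeq2 1.42.0), left out single libraries or added the replicate number as a block.

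Members and lists were chosen with earlier results of these data known, and therefore no test over a list was made. Genes named with values were those past the threshold, the most abundant of each role and the 5 largest changes that did not pass. The remaining genes are given as values in addition. Of the 4 related lists, the 3 genes with the smallest p and the accessory subunits of Pole and Pold1 are given. Genes overlapping on the opposite strand were taken from GENCODE, and similar transcripts were found with minimap2. At least 90% identity over at least 300 bp to a processed pseudogene was found for 10 of the 48 genes, with at most 3.21 CPM in the pseudogene. Protein sequences were not analysed here. One list of cell type markers is not reported here.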

Additional observations from a re-analysis of the deposited data

How the results depend on the processing

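Where 22 of the 48 genes were called lower, 16 to 27 were under other scalings, filters, counts divided by 4 or DESeq2. Calls over all genes in these fits, in either direction, ran from 3915 of 14269 (at least 10 counts in every library) to 7097 of 18375 (DESeq2). At an adjusted p below 0.01, 4 of the 48 were called, and no number over all genes is given for that threshold. With the replicate block 5 of the 48 were called, and 2964 of all genes tested in either direction. Replicate numbers did not pair the libraries (correlations of deviations -0.32, -0.35 and 0.03 for equal numbers over 8214 genes), and the labels do not say that they mark a shared source. Without single libraries the count ran from 5 to 25, and calls over all genes tested, in either direction, from 3840 to 6021. Of the 122 related genes, 42 were lower, 19 with the replicate block, 11 at an adjusted p below 0.01 and 18 to 41 without single libraries. Related genes called higher were 0, but 1 with scaling on abundant genes, 1 with a minimum of 10 counts per library, 1 with counts divided by 4, 3 with DESeq2 and 0 to 2 without single libraries. Scaling on abundant genes moved the median log2 fold change of all genes tested from 0.04 to 0.17 and that of the 48 genes from -1.03 to -0.90. Dscc1 changed sign with scaling on abundant genes (0.045) and ranged from -0.68 to 0.28 without single libraries (above 0 without wild-type or knockout library 1). Mcm4 ranged from -0.60 to 0.11 (above 0 without the same libraries), and Chaf1b from -0.017 (without wild-type library 2) to 0.33. The other 45 genes kept their sign throughout. The cause of these changes was not tested. Counts of the 48 genes ran from 201 to 41105 in a library. Counting intervals were not computed, since low counts piled up at multiples of 4 and the number of fragments behind a count is unknown. The cause of that pile-up was not tested.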
